A study of Bos taurus with 29 samples.

Results

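Healing digital dermatitis lesions (stage M3) were compared with acute ulcerated lesions (stage M2) in the skin of Holstein-Friesian cattle. The 10 libraries, 5 per stage, were chosen by their stage label from the 29 libraries of the series, and genes were kept where both the M2 table and the M3 table list them. All 10 are biopsies of the lesion site, punched from cows of 6 dairy farms, frozen and sequenced with a 3′ kit that reads the ends of polyadenylated messenger RNA. Control skin (M0, 5 libraries, used here for reference levels) came from above the interdigital cleft of cattle of the same breed sampled after slaughter. M0 thus differs from the lesions in source and body site as well as in disease. The labels tie no library to a farm, an animal, an age or a sex. Since nothing says that the 5 samples of a stage came from separate cows, the p-values measure only the spread between these samples.

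Digital dermatitis is an infectious inflammation of bovine foot skin in which treponemes are found deep in the lesion. In the M scoring system M2 is the painful ulcer, M3 the stage after treatment in which a scab covers the wound, and M4 the chronic stage. Wound repair in skin passes through inflammation with neutrophil influx, migration and proliferation of keratinocytes over a new fibroblast matrix, and then renewed differentiation of the epidermis, in which basal keratins give way to KRT1 and KRT10 and finally to a cornified, lipid-sealed barrier. Differences below are log2 values of M3 minus M2, so that a positive value means a higher level in M3.

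The joined table held 10818 genes, of 11047 listed for M2 and 10956 for M3, and 8974 passed the count filter and were tested. The libraries held 3455255 to 5401476 counts over these genes in M2 and 2858791 to 4278289 in M3. The 13 mitochondrially encoded protein genes took 5.52% to 7.09% of the counts. The highest gene was the same in every library, has no symbol and took 6.81% to 14.5%, and it is not among those 13. The basal keratinocyte keratins KRT5 and KRT14 stood at 11323 CPM or more in every lesion library, where CPM are counts scaled to a common library size, which fits the label of skin.

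No gene differed between M3 and M2 at an adjusted p under 0.05 in the quasi-likelihood test of edgeR with Benjamini-Hochberg adjustment, a background of 0%. The smallest adjusted p in that edgeR test was 0.693, and this is also the lowest adjusted p that any gene named below can have in it. At an unadjusted p under 0.05 there were 608 genes, or 6.78% of those tested, with 338 higher in M3 (3.77%) and 270 lower (3.01%). DESeq2 called 1 gene, CCN3, and limma-voom called 0. With the replicate number as a block, edgeR called 19 genes higher and 5 lower, but the labels do not say that a number marks a shared source. Genes named below that were among these are listed in the section on processing. Since the edgeR test without the block called 0 genes, the genes below are described by their values and not as changed between M2 and M3. The values are given with approximate 95% intervals, and a missed threshold does not show that the stages are alike.

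The precision of the estimates from the 10 libraries can be read from those intervals. They are not adjusted for the number of genes, so they do not give the size of difference that would pass the adjusted threshold. Their median half-width was 0.51, and for 6566 genes (73.2%) the whole interval lay within a 2-fold difference in either direction. Only 220 genes (2.45%) had an estimate of 2-fold or more. Levels of all M3 libraries lay above all M2 libraries for 27 genes (0.301%) and below them for 33 (0.368%). In the fit that also held the M0 libraries, 4138 of 10042 genes (41.2%) differed between M2 and M0 and 3869 (38.5%) between M3 and M0, both against the same 5 M0 libraries.

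Libraries of one stage were about as like each other as they were like the other stage. The median Spearman correlation of log2 CPM between libraries, across the tested genes, was 0.939 within M2, 0.928 within M3 and 0.932 between the stages. The closest library was one of the other stage for 9 of the 10, with M2 replicate 1 the exception. The first principal component held 38.3% of the variance. M2 replicates 1 to 4 lay on it at -37.3, -16.4, -30.3 and -21.5, while M2 replicate 5 lay at 22.8. M3 replicates 2, 4 and 5 lay at 16.9, 43.2 and 53.0, while M3 replicates 1 and 3 lay on the M2 side at -20.0 and -10.4. The 4 libraries on the positive side, M2 replicate 5 and M3 replicates 2, 4 and 5, held 3455255, 4278289, 3003297 and 2858791 counts. They also had the 4 lowest TMM scaling factors, 0.963, 0.855, 0.903 and 0.753, against 1.04 to 1.15 in the other 6, and the part of depth or scaling in their position was not tested. The spread of a gene was larger in M3 than in M2 for 5994 genes (66.8%), with a median SD of 0.38 in M3, 0.30 in M2 and 0.27 in M0 on the log2 scale. Counts per library ran lower in M3 (2858791 to 4278289) than in M2 (3455255 to 5401476), and the part of depth in this spread was not tested.

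**Figure D1:**
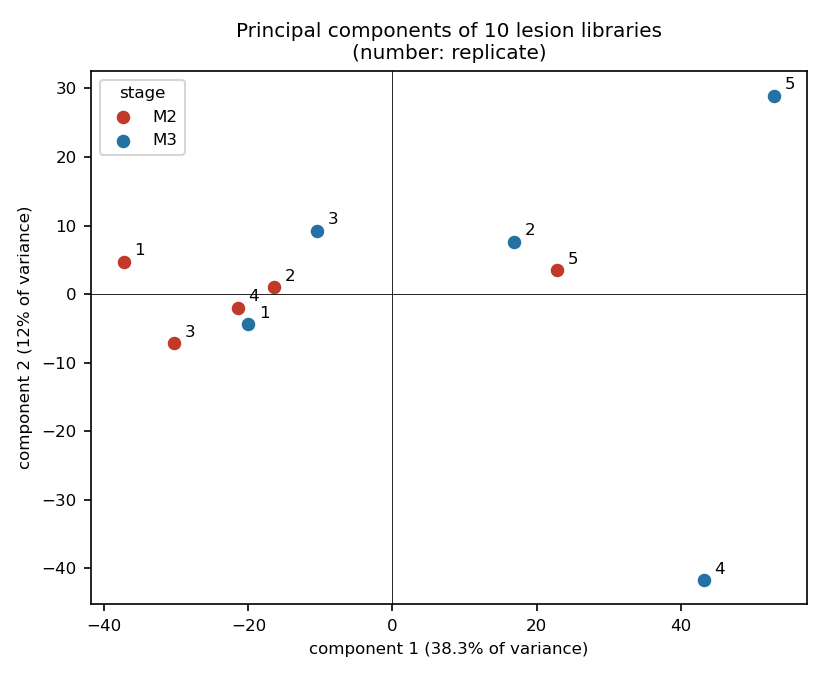
Principal components 1 and 2 of log2 CPM over the 10 lesion libraries, with the share of variance on each axis; each point is a library, coloured by stage and numbered by replicate. M2 replicate 5, at 22.8 on component 1, lies beside M3 replicate 2, at 16.9, and M3 replicates 1 and 3 lie on the side of the other M2 libraries.

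The keratins of the differentiating epidermis separated libraries more than stages. KRT1, the suprabasal keratin that pairs with KRT10, stood at 66.9, 1740.5, 1215, 3011 and 32340.0 CPM in M2 replicates 1 to 5. In M3 replicates 1 to 5 it stood at 4707, 22281, 3992, 55754 and 84243 CPM, against 12986 to 22648 in M0. M2 replicates 1 to 4 were below every M3 library, but M2 replicate 5 was above 3 of the 5, so the groups overlapped. The difference was 2.16 with an interval of -1.38 to 5.70, and it was 4.52 without M2 replicate 5.

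KRT10 showed a similar split of libraries. Its levels were 209, 1759.7, 1526, 2872 and 35777 CPM in M2 replicates 1 to 5. They were 5224, 27109.8, 7574, 72268 and 89826 CPM in the M3 replicates. The lowest M3 library was above M2 replicates 1 to 4, the stages overlapped through M2 replicate 5, and the difference was 2.27 (-1.05 to 5.58), or 4.68 without that library. JUP, plakoglobin of the desmosome, had the smallest unadjusted p of the suprabasal list, with a difference of 0.51 (0.14 to 0.89). Its range was 526 to 686 CPM in M2 and 605 to 1230.1 CPM in M3. M3 replicate 1, at 605 CPM, lay within the M2 range and the other 4 M3 libraries lay above it. Of 20 tested genes of the suprabasal keratinocyte list, 18 had estimates above 0 and 2 below. The list median was 0.52, beside -0.0042 over all tested genes, and 1 member (JUP) had an unadjusted p under 0.05.

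Genes of the cornified envelope, the cross-linked protein shell of dead surface keratinocytes, had the highest list median. It was 1.27, with 18 of 20 tested members above 0, 2 below and 1 at an unadjusted p under 0.05. CASP14, a protease of terminal differentiation, stood at 292, 883, 476, 838 and 3694 CPM in M2 replicates 1 to 5 and at 743, 3776, 1007, 4050.2 and 9977 CPM in the M3 replicates. M3 replicates 1 and 3 lay among the M2 libraries, and M2 replicate 5 lay close to M3 replicates 2 and 4. The difference was 1.67 (-0.49 to 3.82), with 0.96 when M3 replicate 5 and 2.67 when M2 replicate 5 was left out. TGM1, the membrane transglutaminase that cross-links the envelope, was the member with the smallest unadjusted p. It stood at 23.2, 28.3, 35.6, 29.7 and 76.6 CPM in M2 and at 51.4, 59.3, 47.4, 170.3 and 106 CPM in M3. All M3 libraries were above M2 replicates 1 to 4 and 3 of them were below M2 replicate 5, and the difference was 1.18 (0.15 to 2.21).

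Other envelope genes did not follow. Estimates in the list ran from -2.72 to 2.06, and its 2 members below 0 are not the 2 genes described next. IVL, involucrin, an early envelope protein, had a difference of 0.14 (-0.51 to 0.80) with 43.5 to 128 CPM in M2 and 68.4 to 164 CPM in M3. TGM3, another epidermal transglutaminase, differed by 0.21 (-0.20 to 0.62), with 588 to 836 CPM in M2 and 542 to 1119.7 CPM in M3. Both were far above M0, where IVL had at most 24.04 CPM and TGM3 at most 34.5 CPM. LOR, the gene of loricrin, was in the joined table but below the count filter, and FLG, the gene of filaggrin, was not in it.

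The envelope list kept a median above 0 when any 1 library was left out, but the size of that median varied. Without M2 replicate 5 its median was 2.03, and without M3 replicate 4 it was 0.81. The mean log2 CPM of the list ran from 4.88 to 8.11 in M2, where the highest value was that of replicate 5, and from 5.97 to 8.67 in M3. The ranges of the stages overlapped.

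**Figure D2:**
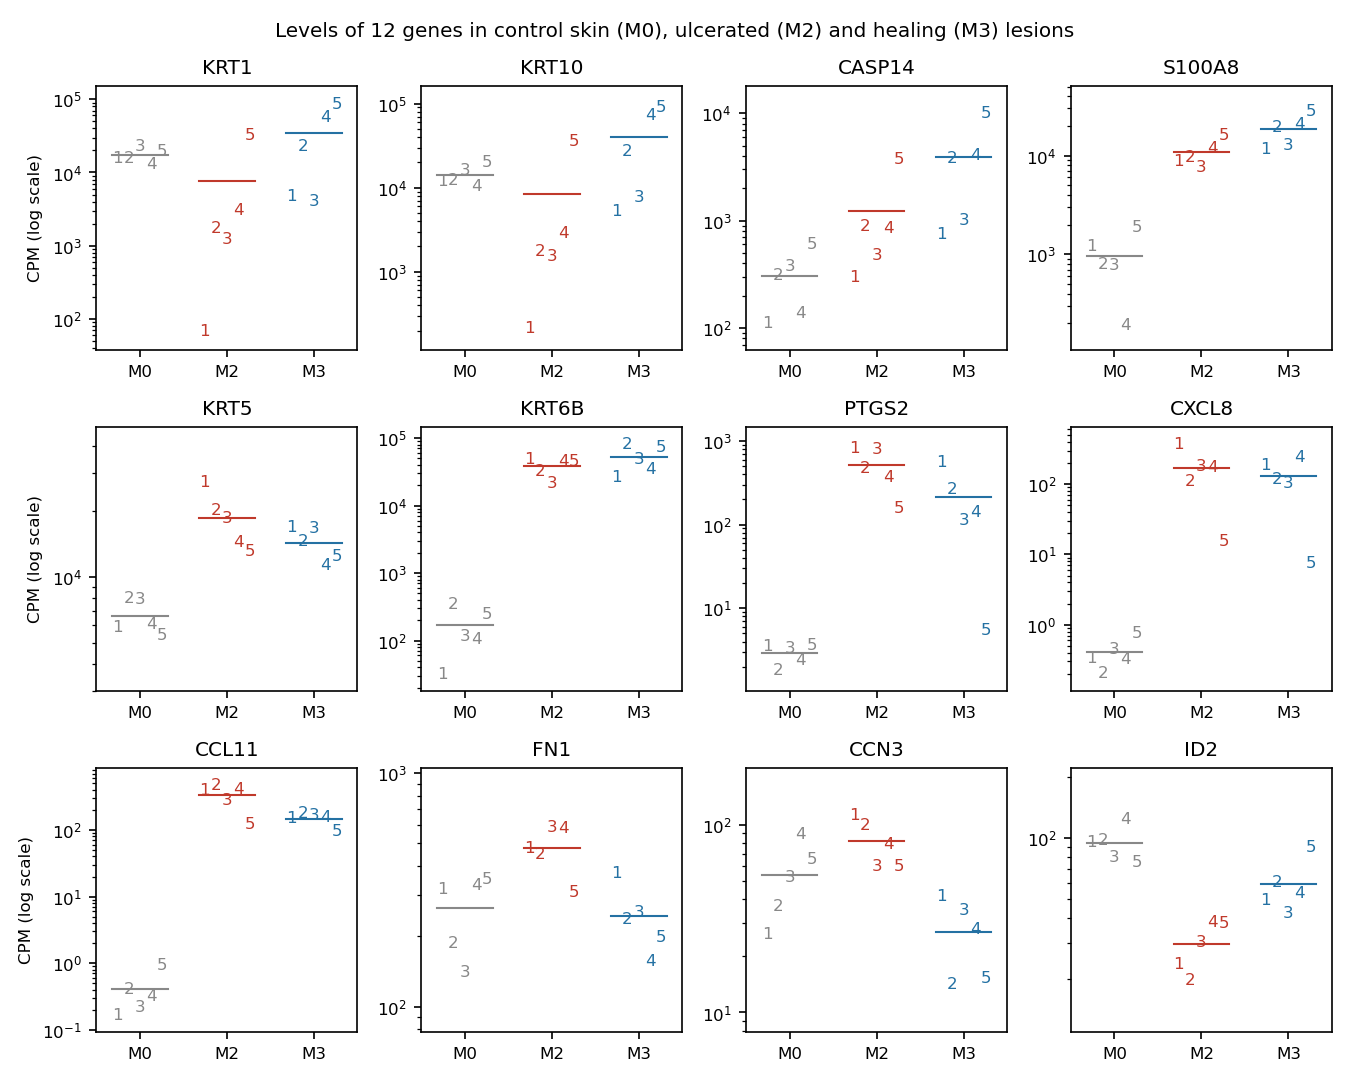
Levels of 12 genes in CPM on log axes, in M0, M2 and M3; each digit is the library of that replicate number and the horizontal line is the arithmetic mean of the 5 libraries of a group. KRT1, KRT10 and CASP14 of M2 replicate 5 sit with the higher M3 libraries, while CCN3 and ID2 are the 2 genes shown whose M2 and M3 libraries do not overlap.

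Barrier lipid genes, which make and carry the ceramides and fatty acids between cornified cells, had a median of 0.82. Of 16 tested members 14 were above 0 and 2 below, and 1 had an unadjusted p under 0.05. This was DEGS2, an enzyme that makes phytoceramides, at 0.414, 3.21, 2.05, 2.23 and 6.67 CPM in M2 replicates 1 to 5 and at 2.05, 6.33, 7.94, 14.4 and 9.31 CPM in M3. M3 replicate 1 lay among the M2 libraries, and M2 replicate 5 lay above 2 M3 libraries, with a difference of 1.47 (0.22 to 2.72). Leaving out M2 replicate 5 brought the list median to 1.54. Cholesterol synthesis genes were closer to 0, with a median of 0.16 and 14 of 17 above 0. MVD, a decarboxylase of the mevalonate pathway, had the smallest unadjusted p of that list, at 15.9 to 20.2 CPM in M2, 18.9 to 28.4 CPM in M3 and a difference of 0.47 (0.10 to 0.83). Of its M3 libraries only replicate 1 lay within the M2 range.

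Basal keratinocyte and basement membrane genes leaned the other way, with a median of -0.31, 12 of 16 below 0, and 3 at an unadjusted p under 0.05, all lower in M3. ITGA3, a laminin receptor subunit, stood at 32.9, 34.6, 28.2, 22.6 and 15.3 CPM in M2 and at 15.7, 18.7, 24.8, 13.2 and 12.7 CPM in M3. Only M2 replicate 5 was as low as the M3 libraries, apart from M3 replicate 3 at 24.8 CPM, which was above M2 replicate 4, and the difference was -0.63 (-1.15 to -0.11). The other 2 were CAV1, a caveolar coat protein, at -0.31 (-0.60 to -0.02) and CDH3, P-cadherin, at -0.43 (-0.84 to -0.03). The basal keratins themselves pointed in opposite directions. KRT5 differed by -0.37 (-0.76 to 0.02), with 13124 to 27054 CPM in M2 and 11323 to 16839.8 CPM in M3. KRT14 differed by 0.23 (-0.15 to 0.60), with 12925 to 20918 CPM in M2 and 14629 to 26574 CPM in M3.

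Keratins of wounded epidermis were high in both stages. KRT6B, which keratinocytes make when activated at a wound edge, stood at 48671, 31890.4, 21462, 45391 and 44636 CPM in M2. It stood at 25656, 80979, 48250.4, 33830.0 and 73506 CPM in M3, and at 31.7 to 347 CPM in M0. The 2 highest levels were of M3 replicates 2 and 5, the rest were mixed, and the difference was 0.46 (-0.33 to 1.25). In the fit with M0, KRT6B rose by 7.80 ± 0.71 in M2 and by 8.26 ± 0.73 in M3 (log2, standard error, n = 5 per group), with edgeR adjusted p-values of 3.44e-06 and 2.83e-06 against the same controls.

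The wound and hyperproliferation list as a whole divided evenly, with 10 of 21 tested members above 0 and 11 below, a median of -0.35 and 1 at an unadjusted p under 0.05. That member was HBEGF, a growth factor for keratinocytes, at 26.7, 32.5, 32.8, 26.6 and 13.03 CPM in M2 and 27.1, 18.99, 14.6, 10.5 and 13.7 CPM in M3, with a difference of -0.61 (-1.21 to -0.01). M3 replicate 1 was within the range of M2 replicates 1 to 4, and M2 replicate 5 was within that of the other M3 libraries. TNC, tenascin C of provisional wound matrix, had 61.0 to 207 CPM in M2, 14.2 to 125 CPM in M3 and a difference of -0.84 (-2.09 to 0.41). The highest M3 library in TNC was replicate 1.

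Fibroblast and scar matrix genes were mostly lower in the M3 estimates. Of 25 tested genes, 23 had estimates below 0 and 2 above, with a median of -0.52. All 5 members at an unadjusted p under 0.05 were lower in M3. FN1, fibronectin, the scaffold of early wound matrix, stood at 475, 449, 584, 580.1 and 309 CPM in M2 replicates 1 to 5 and at 373, 237, 254, 156 and 197 CPM in M3. M3 replicate 1 was above M2 replicate 5, and otherwise every M3 library was below every M2 library, with a difference of -0.97 (-1.46 to -0.48). The other 4 were S100A4, a calcium-binding protein of mesenchymal cells, at -0.57 (-1.03 to -0.11), CTHRC1, a collagen-associated protein of activated fibroblasts, at -0.72 (-1.33 to -0.11), ACTA2, smooth muscle actin, at -0.54 (-1.0 to -0.08), and the proteoglycan VCAN at -1.46 (-2.75 to -0.16). In bulk biopsies fewer cells of a type and less RNA per cell cannot be told apart.

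M3 replicate 1 stood apart in fibrillar collagens. COL1A1, the chain of type I collagen, stood at 1869, 1826, 2460.0, 2314 and 1663 CPM in M2 and at 4282, 1537, 693, 903 and 897 CPM in M3. Replicate 1 was the highest of all 10 libraries and the other 4 M3 libraries were the lowest, so that the difference was -0.27 (-1.41 to 0.86), or -0.99 without M3 replicate 1. COL3A1, of type III collagen, repeated this pattern, with 1057 to 1660.2 CPM in M2 and 562 to 1221 CPM in M3 replicates 2 to 5, but 2473 CPM in M3 replicate 1. Its difference was -0.19 (-0.99 to 0.61), and M3 replicate 2 lay within the M2 range.

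Over the 23 tested collagens and collagen processing genes the median was -0.40, with 22 below 0 and 1 above, and 5 lower at an unadjusted p under 0.05. COL8A1, a short-chain collagen of vessels and wounds, stood at 29.8, 33.4, 37.7, 38.9 and 38.5 CPM in M2 and at 34.1, 14.1, 19.97, 10.5 and 11.8 CPM in M3. Again replicate 1 was the only M3 library within the M2 range, and the difference was -0.94 (-1.53 to -0.35). COL18A1, a basement membrane collagen, differed by -0.40 (-0.68 to -0.12), with 114 to 147 CPM in M2 and 81.2 to 114 CPM in M3. The other 3 were COL4A1, a basement membrane collagen, at -0.70 (-1.26 to -0.14), and the collagen-modifying hydroxylases PLOD1 at -0.82 (-1.53 to -0.11) and P4HA1 at -0.51 (-1.0 to -0.02). Without M3 replicate 1 the collagen median was -0.78 and the fibroblast median -0.97. In that fit of 9 libraries 1 gene was called, THBS2, a matricellular protein of fibroblasts, which differed by -1.96 with an edgeR adjusted p of 0.0138.

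Matrix metalloproteinases and their inhibitors had the lowest list median, -0.63, with 12 of 12 tested members below 0 and 0 at an unadjusted p under 0.05. ADAMTS1, a secreted protease of the extracellular matrix, had the smallest unadjusted p, with 5.58 to 16.6 CPM in M2, 4.35 to 10.1 CPM in M3 and a difference of -0.70 (-1.41 to 0.02). MMP9, gelatinase B, which neutrophils also carry, stood at 323, 159, 224, 88.9 and 61.0 CPM in M2 and at 175, 61.3, 119, 138 and 38.7 CPM in M3. Within each stage replicate 1 was the highest and replicate 5 the lowest, and the stages overlapped over most of their range, with a difference of -0.67 (-1.89 to 0.55). M0 libraries had at most 3.61 CPM.

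**Figure D3:**
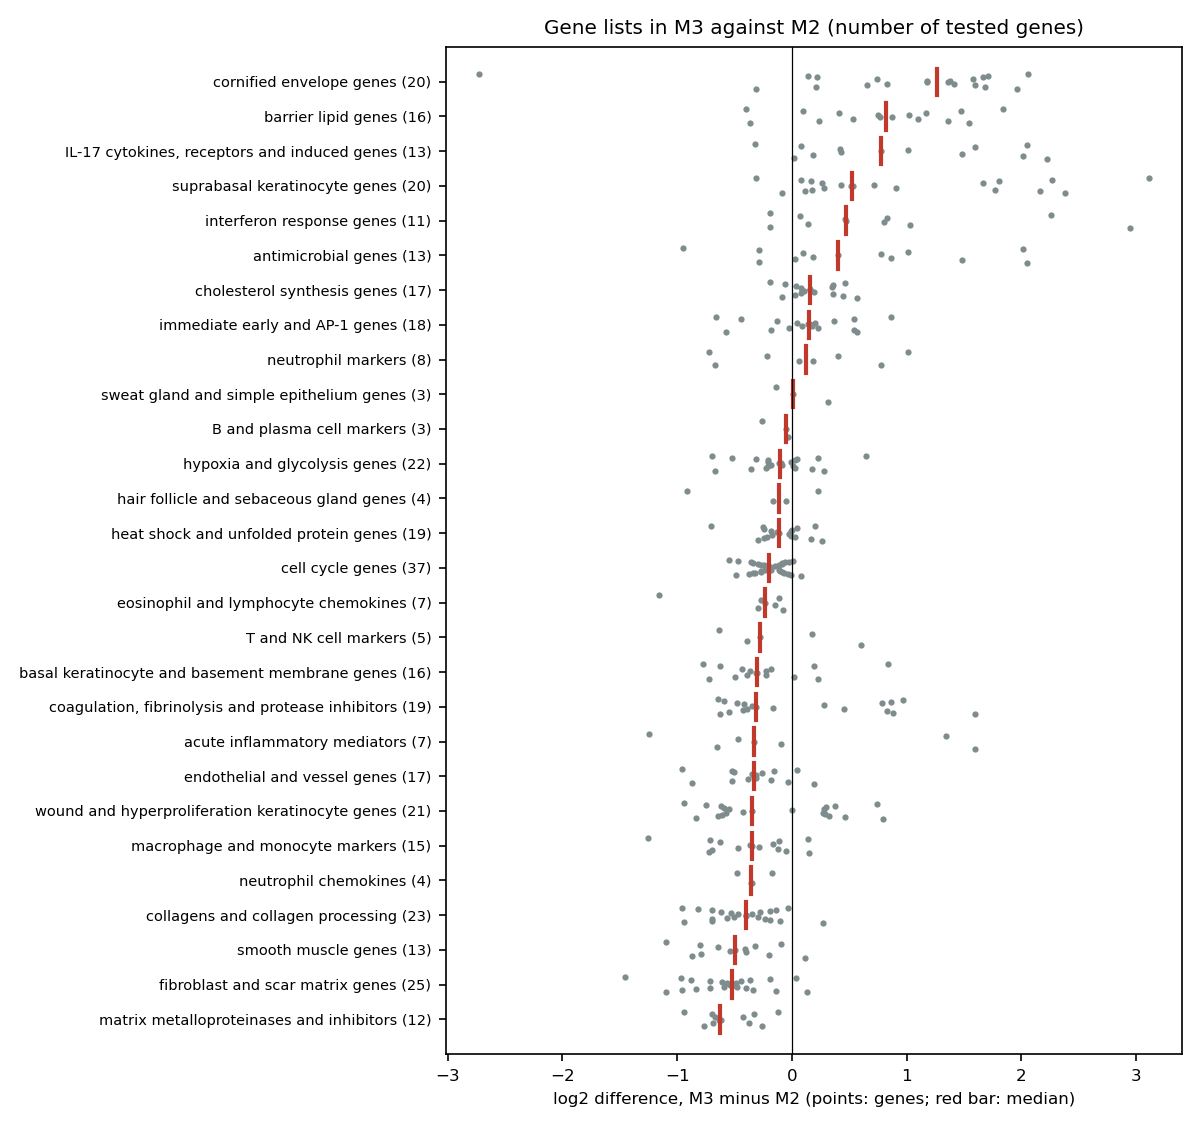
Differences (log2, M3 minus M2) of the tested members of each gene list; each grey point is a gene, each red bar the list median, the number of tested genes is in parentheses, and lists with at least 3 tested genes are ordered by median. Cornified envelope genes have the highest median, 1.27, and matrix metalloproteinases and inhibitors the lowest, -0.63.

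Vessel and smooth muscle genes were also mostly below 0. Of 17 tested endothelial and vessel genes 15 were below 0 and 2 above, with a median of -0.33 and 1 at an unadjusted p under 0.05. ESAM, an endothelial adhesion molecule, stood at 22.8, 18.1, 26.9, 20.8 and 11.8 CPM in M2 and at 13.2, 8.92, 13.1, 10.5 and 8.33 CPM in M3. M2 replicates 1 to 4 were above all M3 libraries and M2 replicate 5 was among them, with a difference of -0.87 (-1.37 to -0.37). PECAM1, the endothelial marker CD31, differed by -0.50 (-1.05 to 0.04), with 18.8 to 31.2 CPM in M2 and 9.31 to 24.8 CPM in M3. VEGFA, the vascular growth factor, differed by -0.31 (-1.04 to 0.42).

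PGF, placental growth factor of the same family, was among the 12 lower genes with the smallest p. It stood at 36.7, 21.5, 31.2, 24.1 and 20.02 CPM in M2 and at 20.3, 18.7, 6.66, 7.76 and 10.8 CPM in M3. M3 replicate 1 alone reached the lowest M2 level, and the difference was -1.03 (-1.68 to -0.37). For smooth muscle genes 12 of 13 tested were below 0, with a median of -0.50 and 4 at an unadjusted p under 0.05, all lower in M3. These were TPM2 at -0.80 (-1.44 to -0.15), CNN1 at -0.80 (-1.47 to -0.12), ACTA2 as given above and ACTG2 at -0.87 (-1.63 to -0.10), all proteins of the contractile apparatus. In TPM2 the M2 libraries had 29 to 38.9 CPM and M3 replicates 2 to 5 had 10.3 to 23.6 CPM, with M3 replicate 1 at 36.0.

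The acute mediators that could be tested varied widely within each stage. PTGS2, the inducible cyclooxygenase that makes prostaglandin precursors, stood at 817, 470.1, 783, 368 and 156 CPM in M2 replicates 1 to 5. It stood at 561, 266, 111, 140.0 and 5.39 CPM in M3, and at 1.82 to 3.54 CPM in M0. M3 replicate 5 was near the control level while M3 replicates 1 and 2 were within the M2 range. The difference was -1.24 (-3.36 to 0.88), and -1.96 without M3 replicate 1.

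IL1B, the pyrogenic interleukin-1 beta, stood at 214, 72.5, 167, 67.0 and 8.58 CPM in M2 and at 164, 90.1, 52.0, 106 and 1.96 CPM in M3. In each stage replicate 5 was the lowest by a wide margin and the others were mixed. Its difference was -0.33 (-2.52 to 1.86), and without M2 replicate 1 it was 0.10. PTGES, prostaglandin E synthase, pointed the opposite way to PTGS2, with 3.11 to 8.26 CPM in M2, 2.3 to 27.9 CPM in M3 and a difference of 1.35 (0.07 to 2.62), or 0.68 without M3 replicate 4. It was highest in M3 replicates 4 and 5, and the only one of the 7 tested acute mediators with an unadjusted p under 0.05. The list had 5 members below 0 and 2 above, with a median of -0.33. IL6 was listed in the M2 table only and was outside the test, so these values do not cover it.

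Neutrophil-attracting chemokines followed the same library pattern. CXCL8, interleukin-8, stood at 360.4, 109, 180.3, 173 and 15.3 CPM in M2 and at 182, 117, 101, 238 and 7.35 CPM in M3. Replicate 5 was the lowest of either stage and all others stood at 101 CPM or more, with a difference of -0.36 (-2.39 to 1.68), which was 0.13 without M2 replicate 1. M0 libraries had at most 0.745 CPM. GRO1, a CXCR2 ligand, differed by -0.48 (-2.52 to 1.57), from 15.6 to 342 CPM in M2 and from 13.7 to 244 CPM in M3. All 4 tested members of the list were below 0, with a median of -0.35 and 0 at an unadjusted p under 0.05. Of 8 symbols in the list, the other 4 were outside the joined table.

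Among chemokines of eosinophils and lymphocytes, CCL11, eotaxin, an attractant of eosinophils, had the smallest p. It stood at 385, 473, 275, 406 and 121 CPM in M2 and at 148, 178, 164, 154 and 93.6 CPM in M3. M2 replicates 1 to 4 were above every M3 library and M2 replicate 5 was below all M3 libraries except replicate 5, with a difference of -1.16 (-1.85 to -0.47). CCL11 rose against M0 in both stages, by 9.55 ± 0.49 in M2 and 8.38 ± 0.48 in M3 (log2, standard error), with edgeR adjusted p-values of 4.12e-09 and 1.35e-08 against shared controls that had at most 0.932 CPM. All 7 tested genes of this list were below 0, with a median of -0.23, and CCL11 was the 1 member at an unadjusted p under 0.05. The eosinophil genes that could bear on it were few. Of 12 mast cell and eosinophil markers 2 were tested, and the summed level of those in the joined table was 12.6 to 19.2 CPM in M2 and 9.50 to 17.3 CPM in M3. Their part in the CCL11 level was not tested. KIT, the stem cell factor receptor of mast cells and melanocytes, differed by -0.25 (-0.84 to 0.35).

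Genes of the IL-17 axis, the cytokine pathway that makes keratinocytes produce antimicrobial proteins and neutrophil attractants, were mostly above 0. Of 13 tested, 12 were above 0 and 1 below, with a median of 0.78 and 3 at an unadjusted p under 0.05. S100A8, a subunit of calprotectin made by neutrophils and by activated keratinocytes, stood at 8811, 9657, 7647, 11847 and 16132 CPM in M2. It stood at 11529, 19271, 12761, 20462 and 28139 CPM in M3, and at 191 to 1874 CPM in M0. M3 replicates 2, 4 and 5 were above every M2 library and M3 replicates 1 and 3 were within the M2 range, with a difference of 0.78 (0.17 to 1.38).

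The other 2 were S100A9, its partner subunit, at 1.01 (0.13 to 1.90), and NFKBIZ, a nuclear regulator of transcription induced by IL-17, at 0.42 (0.07 to 0.78). CCL20, the attractant of CCR6-bearing lymphocytes, had a difference of 2.23 (-0.48 to 4.93) that came from a single library. It stood at 66.1, 58.2, 42.0, 32.6 and 49.3 CPM in M2 and at 81.0, 32.5, 18.2, 990.2 and 28.9 CPM in M3. M3 replicate 4 was more than 10 times the level of any other library, and without it the difference was -0.28. Without that library the list median was 0.28. IL17F was listed in the M3 table only and was outside the test.

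Antimicrobial genes had a median of 0.40, with 10 of 13 tested above 0. The 2 members at an unadjusted p under 0.05 were S100A8 and S100A9, which the IL-17 and neutrophil lists also hold. Of 24 neutrophil markers 9 were in the joined table and 8 were tested. Of these 5 were above 0 and 3 below, with a median of 0.12. The summed level of the list was 21194 to 38035 CPM in M2 and 26999 to 50280 CPM in M3, against 998 to 4364 CPM in M0. Part of that sum was S100A8, which keratinocytes also make, at 7647 to 16132 CPM in M2 and 11529 to 28139 CPM in M3. The mean log2 CPM of the list, which weighs its genes alike, averaged 7.04 in M2 and 7.12 in M3.

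Interferon response genes had a median of 0.47, with 9 of 11 tested above 0 and 4 at an unadjusted p under 0.05. ISG15, a ubiquitin-like antiviral protein, stood at 2.28, 1.32, 1.02, 3.35 and 3.5 CPM in M2 and at 2.73, 58.1, 6.4, 15.9 and 3.43 CPM in M3. M3 replicate 2 was the highest and M3 replicates 3 and 4 also lay above M2, while M3 replicates 1 and 5 were at the M2 level. The difference was 2.95 (0.89 to 5.01), and 1.64 without M3 replicate 2. The other 3 were OAS1Y, an antiviral oligoadenylate synthetase, at 2.26 (0.49 to 4.03), USP18, which removes ISG15 from proteins, at 1.03 (0.20 to 1.86), and IRF9, a transcription factor of interferon signalling, at 0.46 (0.02 to 0.90). OAS1Y was also highest in M3 replicate 2, at 128 CPM, against 3.59 to 15.9 CPM in M2. Without M2 replicate 4, which had the highest list mean in M2, the median was 1.09.

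**Figure D4:**
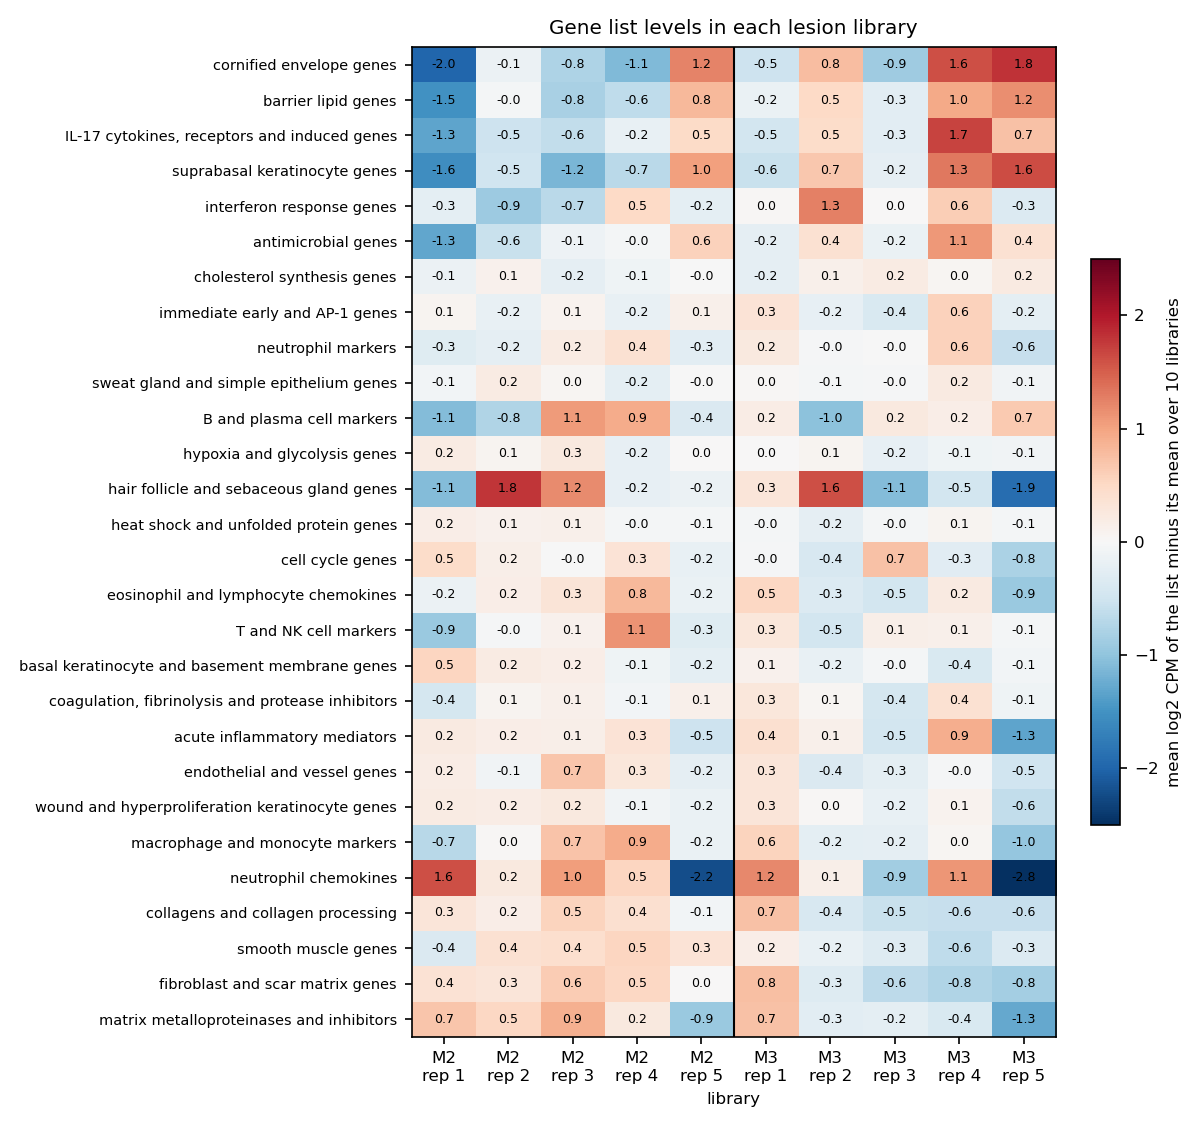
Mean log2 CPM of each gene list in each lesion library, shown as the difference from the mean of that list over the 10 libraries (colour and number); the black line separates the stages. Cornified envelope and suprabasal genes are high in M2 replicate 5 and in M3 replicates 2, 4 and 5, whereas fibroblast and collagen genes are high in M3 replicate 1.

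Macrophage markers were mostly below 0 in the M3 estimates, and few lymphocyte markers could be tested. Of 15 tested macrophage and monocyte markers 13 were below 0 and 2 above, with a median of -0.35 and 0 at an unadjusted p under 0.05. The median was -0.012 without M2 replicate 4 and -0.64 without M3 replicate 1. Their summed level was 374 to 828 CPM in M2, 374 to 753 CPM in M3 and 156 to 437 CPM in M0. CD68, a lysosomal protein of macrophages, stood at 6.42, 10.01, 18.4, 20.8 and 6.04 CPM in M2 and at 12.3, 7.48, 7.68, 6.98 and 4.41 CPM in M3. M2 replicates 3 and 4 were the highest, the rest were mixed, and the difference was -0.63 (-1.43 to 0.18). SPP1, osteopontin, was low in both stages, with a difference of -1.26 (-2.80 to 0.29), or -0.48 without M2 replicate 2.

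T and NK cell markers had 5 tested members of 22, with 2 above 0 and 3 below and a median of -0.27. GATA3, a transcription factor of T cells and of keratinocytes, had the smallest p among them, at 13.9 to 37.8 CPM in M2, 27.9 to 69.6 CPM in M3 and a difference of 0.60 (-0.05 to 1.26). CD3E was below the count filter. B and plasma cell markers had 3 tested members, with a median of -0.05. JCHAIN, the joining chain of secreted antibodies, stood at 21.3 to 76.8 CPM in M2 and 17.3 to 62.1 CPM in M3, with a difference of -0.04 (-1.0 to 0.93), and IRF4, a plasma cell transcription factor, differed by -0.26 (-1.50 to 0.97).

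Proliferation genes were slightly lower in the M3 estimates. Of 37 cell cycle genes, all of them tested, 35 were below 0 and 2 above, with a median of -0.20 and 1 at an unadjusted p under 0.05. UBE2C, a ubiquitin-conjugating enzyme of mitosis, stood at 72.7, 69.7, 53.3, 68.8 and 46.1 CPM in M2 and at 45.8, 44.0, 68.6, 36.1 and 24.99 CPM in M3. M3 replicate 3 was among the highest M2 libraries and the other M3 libraries were below all of M2, with a difference of -0.48 (-0.96 to -0.01). MKI67, the Ki-67 proliferation antigen, was highest of all in M3 replicate 3, at 38.9 CPM, against 16.5 to 27.2 CPM in M2 and 11.8 to 19.1 CPM in the other M3 libraries. Its difference was -0.14 (-0.73 to 0.45). Without M3 replicate 3 the list median was -0.51.

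Hypoxia and glycolysis genes had a median of -0.10 with 14 of 22 below 0, and 2 lower at an unadjusted p under 0.05. LDHA, lactate dehydrogenase, was the one with the smallest p, at 601 to 1069.7 CPM in M2, 366 to 710.2 CPM in M3 and a difference of -0.52 (-0.97 to -0.07). Heat shock and unfolded protein genes had a median of -0.11, and CRELD2, of the endoplasmic reticulum stress response, differed by -0.71 (-1.27 to -0.14). Immediate early genes had a median of 0.15, and JUND, an AP-1 subunit, differed by 0.54 (0.15 to 0.93). Coagulation and protease inhibitor genes had a median of -0.31, with 1 higher at an unadjusted p under 0.05. That was A2ML1, an epidermal protease inhibitor, with 78.1 to 259.6 CPM in M2, 184 to 386 CPM in M3 and a difference of 0.88 (0.13 to 1.64). Hair follicle and sebaceous gland genes had 28 members in the joined table, of which 4 passed the filter. Of these, 1 was above 0 and 3 were below, with a median of -0.11. The member above 0 was SCD, a fatty acid desaturase, which had the smallest p. Its difference was 0.23 (-0.17 to 0.63). Sweat gland genes had 3 tested members and a median of 0.01, with SLC12A2, an ion cotransporter, at 0.31 (-0.25 to 0.88). No red blood cell or platelet gene of the list was in the joined table.

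Over all 30 lists, 381 of 633 symbols were tested, and 15 were higher and 23 lower at an unadjusted p under 0.05. These are 3.94% and 6.04% of the tested members, beside 3.77% and 3.01% of all tested genes. No member of any list had groups that did not overlap, beside 0.301% and 0.368% of all tested genes.

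The genes with the smallest p among those with a symbol and an above-median level, up to 12 in each direction, are given as values. CCN3, a matricellular protein of the CCN family, had the smallest unadjusted p of all genes. It stood at 111, 98.4, 59.7, 77.9 and 60.1 CPM in M2 and at 41.7, 14.1, 35.1, 27.5 and 15.2 CPM in M3. The groups did not overlap, and the difference was -1.58 (-2.24 to -0.92). DESeq2 gave it a difference of -1.58 and an adjusted p of 0.0022. In the fit with M0, where levels ran from 25.95 to 88.4 CPM, M3 fell by 1.02 ± 0.36 (edgeR adjusted p = 0.0343), whereas M2 differed by 0.56 ± 0.34 (edgeR adjusted p = 0.207), against the same controls.

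PRSS23, a secreted serine protease, stood at 617, 445, 491, 386 and 314 CPM in M2 and at 378, 253, 323, 169.9 and 192 CPM in M3. M3 replicates 1 and 3 overlapped with M2 replicate 5, and the difference was -0.76 (-1.26 to -0.27). CHORDC1, a co-chaperone of HSP90, had groups that did not overlap, with 66.5 to 89.7 CPM in M2, 49.6 to 63.5 CPM in M3 and a difference of -0.43 (-0.70 to -0.15). TGM2, tissue transglutaminase, differed by -1.08 (-1.83 to -0.34), with 23.2 to 83.8 CPM in M2 and 18.6 to 42.1 CPM in M3. The remaining lower genes were TNFRSF21, a death receptor, at -0.72, the polycomb protein RYBP at -0.73 and the DNA-binding protein FUBP1 at -0.60, beside FN1, CCL11, COL8A1, PGF and COL18A1 above.

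On the higher side, ID2, an inhibitor of basic helix-loop-helix transcription factors, had groups that did not overlap. It stood at 23.6, 19.6, 30.5, 38.2 and 37.5 CPM in M2 and at 48.7, 60.2, 42.0, 53.1 and 89.7 CPM in M3, against 75.1 to 123 CPM in M0. Its M3 levels thus lay between those of M2 and most of M0, and the difference was 0.98 (0.48 to 1.48). Against M0, ID2 fell by 1.69 ± 0.22 in M2 and by 0.72 ± 0.21 in M3 (log2, standard error), with edgeR adjusted p-values of 7.97e-06 and 0.0119 and shared controls. MGST1, a microsomal glutathione transferase, stood at 66.1, 95.2, 84.3, 78.6 and 118 CPM in M2 and at 125, 165, 112, 145 and 194 CPM in M3. M3 replicate 3 alone lay under the highest M2 library, all 10 were below the M0 range of 247 to 408 CPM, and the difference was 0.76 (0.37 to 1.15).

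IL20RB, a receptor chain for the IL-20 family cytokines that act on keratinocytes, stood at 22.0 to 40.2 CPM in M2, 32.3 to 86.9 CPM in M3 and 75.1 to 105 CPM in M0, with a difference of 0.98 (0.43 to 1.53). APOBEC3Z1, a cytidine deaminase of antiviral defence, had 0 counts in every M0 library. It stood at 22.6, 13.97, 6.92, 11.8 and 7.31 CPM in M2 and at 24.8, 34.5, 15.6, 42.3 and 37.7 CPM in M3. M3 replicate 3 was below M2 replicate 1 and the other M3 libraries were above all of M2, with a difference of 1.3 (0.56 to 2.03). Others in this group were TENT5B (0.99), MARK1 (0.84), RASSF5 (0.72), TMEM45B (0.70), PLEKHF2 (0.64), MALSU1 (0.62) and MKNK2 (0.57). M3 replicate 1 lay within the M2 range in TENT5B, MARK1, TMEM45B, PLEKHF2, MALSU1 and MKNK2. In MARK1 M3 replicate 3 did so too, at 51.7 CPM against an M2 maximum of 55.3 CPM. In RASSF5 M3 replicates 2 and 3, at 80.3 and 64.8 CPM, lay within the M2 range of 53.0 to 81.0 CPM.

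**Figure D5:**
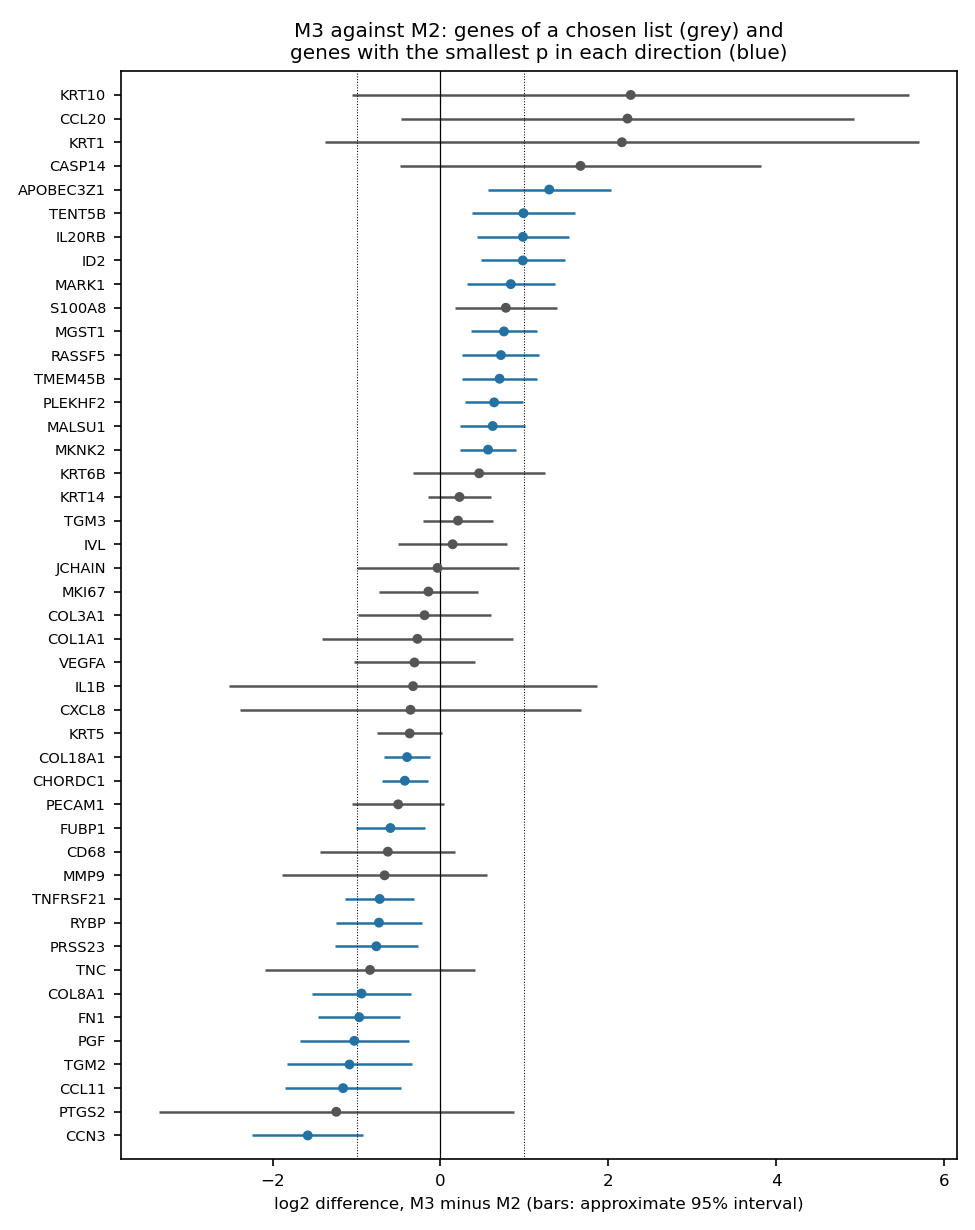
Difference of M3 minus M2 (log2) for genes of a chosen list (grey) and for up to 12 genes with the smallest p in each direction (blue); bars are approximate 95% intervals and dotted lines mark a 2-fold difference. KRT10, CCL20 and KRT1 have the largest estimates and intervals that include 0, while CCN3 has the lowest estimate at -1.58.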

How the data were processed

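The submitters' processing notes name the tools cutadapt 2.8, FastQC 0.11.7, RSEM 1.3.1, STAR and edgeR, without their settings, and the bovine build ARS-UCD1.2. The deposited tables, per the file headers, each set 1 stage beside the same 5 M0 libraries and hold whole-number counts per gene and library. Whether RSEM estimates were rounded to counts is not given in the sources used here. The authors also deposited a normalized signal in TMM-scaled CPM and p-values for each stage against M0, which were not used. All listed genes exceeded 1 CPM in at least 5 libraries of their table, so a gene in 1 table only was outside the comparison.

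Counts of the M2 and M3 columns were joined on the gene identifier. In edgeR 4.0.16 (R 4.3.3) filterByExpr left out 1844 genes, TMM factors were computed, and a robust quasi-likelihood model was fitted to the 10 libraries without covariates, with Benjamini-Hochberg adjustment over 8974 genes at a threshold of 0.05. Standard errors are the absolute log2 difference over the square root of F, and intervals use the t quantile at the total degrees of freedom. Levels in CPM use TMM factors over the M0, M2 and M3 libraries. Mean list levels and components use log2 CPM with a prior count of 2. No 2 libraries of a stage agreed within sampling noise, the lowest chi-square per degree of freedom being 13.7. Replicate numbers were not taken to pair libraries, since the labels do not say that a number marks a shared source. The files gave no symbol for 382 tested genes, and 56 symbols came from a RefSeq gene table.

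Named genes are 23 of a list of 28 chosen genes that could be tested, the 12 per direction with the smallest p among genes with a symbol and above-median level, and the member of each of 30 lists with the smallest p. List members with an unadjusted p under 0.05 are named besides in several lists. Of the genes so chosen, 2 are not reported here. The comparison, genes and lists were chosen with earlier results of these data known. Alternatives used limma 3.58.1, DESeq2 1.42.0, other filters, scalings and sets of libraries. The procedure was tested on simulated counts. Figures were drawn with matplotlib 3.10.9.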

Additional observations from a re-analysis of the deposited data

Results flagged for a closer look

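A library far from the other 4 of its stage was found in 13 of the 196 sets of 5 values examined by Dixon's ratio (6.63%), where chance gives about 1 in 20. M3 replicate 5 was low in IL1B (1.96 CPM, the others 52.0 to 164), CXCL8 (7.35 CPM, the others 101 to 238) and CCL11 (93.6 CPM, the others 148 to 178). M2 replicate 5 was high in PTGES (8.26 CPM, the others 3.11 to 3.84), low in HBEGF (13.03 CPM, the others 26.6 to 32.8) and low in the mean log2 CPM of acute inflammatory mediators (4.78, the others 5.44 to 5.64).

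M3 replicate 1 was high in TNFRSF21 (204 CPM, the others 121 to 129.9) and in the mean log2 CPM of collagens and collagen processing (5.71, the others 4.41 to 4.59). M2 replicate 1 was low in GATA3 (13.9 CPM, the others 31.5 to 37.8) and in the mean log2 CPM of smooth muscle genes (4.60, the others 5.29 to 5.49). M2 replicate 3 was high in PECAM1 (31.2 CPM, the others 18.8 to 19.9) and low in TENT5B (54.8 CPM, the others 99.5 to 122). M3 replicate 2 was low in CRELD2 (5.76 CPM, the others 13.6 to 17.1).

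Genes listed for 1 of the 2 stages only were outside the comparison, and 229 such genes were listed for M2 and 138 for M3. Of those that belong to a list, 4 per stage had every lesion library above every M0 library. In M2 these were SLPI, a secreted protease inhibitor, with a mean of 61.9 CPM, the neutrophil attractant CXCL5 with 59.96 CPM, the cytokine IL6 with 53.8 CPM and the collagenase MMP13 with 5.36 CPM. In M3 they were the water channel AQP5 with 14.2 CPM, the cytokine IL36A with 7.89 CPM, the plasma cell protein MZB1 with 4.18 CPM and the cytokine IL17F with 2.47 CPM. Their counts in the other stage were not analysed here, and these levels use the TMM scaling of their own table.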

How the results depend on the processing

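The edgeR counts of 0 genes higher and 0 lower held under RLE size factors, no filter, a filter of 10 counts in 5 libraries, a fit that was not robust, limma-voom, fits with M0 or with all 29 libraries, and a test against a 1.5-fold difference. DESeq2 called 1 gene lower. Leaving out 1 library at a time gave 0 higher and 0 to 1 lower (THBS2, without M3 replicate 1). Genes at an unadjusted p under 0.05, 608 in all, came to 1007 without M2 replicate 5, 1172 without M3 replicate 1, 967 without M3 replicate 3, 393 without M2 replicate 3 and 378 without M3 replicate 5. The cause was not tested. With the replicate number as a block, 19 genes were called higher and 5 lower. The labels do not say that a number marks a shared animal or farm. Deviations of same-numbered libraries correlated at 0.187, 0.220, -0.000283, -0.0624 and 0.481, so 3 of 5 were over 0.1, and 4 of 10 libraries correlated best with their own number, so any pairing is only a hint from the data. Of the genes named, CASP14 (1.66), S100A8 (0.75), S100A9 (0.96), MGST1 (0.76), CCN3 (-1.65), CCL11 (-1.06) and PRSS23 (-0.79) were among those 24.

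Estimates that changed sign when 1 library was left out were those of IL1B (-0.72 to 0.10), CXCL8 (-0.70 to 0.13), CCL20 (-0.28 to 2.53), IVL (-0.064 to 0.27), JCHAIN (-0.22 to 0.19) and IRF4 (-0.51 to 0.36), and JCHAIN stood at 0.0094 with the block. None of these genes was past a threshold. CCL20 came to 0.44 in limma-voom and to 0.20 with the block. List medians changed sign, among other alternatives, for neutrophil chemokines (0.08) and acute mediators (0.10) without M2 replicate 1, for neutrophil markers (-0.11) and immediate early genes (-0.05) without M3 replicate 4, for T and NK cell markers (0.39 without M2 replicate 4, 0.18 with no filter, 0.13 in limma-voom), for B and plasma cell markers (0.26) without M2 replicate 3, for the hair follicle list (0.21) without M2 replicate 2 and for the sweat gland list (-0.17) without M2 replicate 4. Other list medians kept their sign but moved by over 1.5 times, among them basal keratinocyte (-0.12), wound (-0.15) and antimicrobial genes (0.19) without M2 replicate 1, vessel (-0.13) and coagulation genes (-0.08) without M2 replicate 3, barrier lipid genes (1.54) without M2 replicate 5, collagens (-0.78), fibroblast genes (-0.97) and eosinophil and lymphocyte chemokines (-0.56) without M3 replicate 1, cell cycle genes (-0.51) without M3 replicate 3, IL-17 genes (0.28) without M3 replicate 4, and metalloproteinases (-0.39) and suprabasal genes (0.35) without M3 replicate 5. The median of the wound list was 0.0026 in the fit of all 29 libraries, and that of the hair follicle list was -2.62 with no filter, which admits 24 further members. Depth limits low genes, since 3 counts correspond to 0.532 to 1.397 CPM.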

Other observations

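The genes with the largest spread within the stages, named here after their values were seen, divided the libraries in ways that the stage labels do not follow. S100A7, psoriasin, an antimicrobial protein of keratinocytes, ran from 1.86 to 1017 CPM in M2 and from 2.56 to 3445 CPM in M3. In M0 it ran from 2372 to 6088 CPM. KRT2 and KRT78, keratins of the upper epidermis, were at most 5.10 CPM in M2 replicates 1 to 4, whereas in M2 replicate 5 they stood at 46.1 and 210.7 CPM. In M3 replicates 2, 4 and 5 KRT2 stood at 14.1, 175 and 181 CPM and KRT78 at 79.1, 557 and 482 CPM. In M3 replicates 1 and 3 KRT2 stood at 0 and 2.82 CPM and KRT78 at 1.59 and 10.8 CPM. The M0 ranges were 12.6 to 40.8 CPM for KRT2 and 17.9 to 55.7 CPM for KRT78.

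A second set had another order of libraries. ELOVL3, a fatty acid elongase active in mouse sebaceous glands, stood at 0.207, 200.9, 72.0, 8.49 and 15.3 CPM in M2 replicates 1 to 5 and at 39.2, 217, 0.256, 4.65 and 0 CPM in M3. MOGAT2, an acyltransferase of triglyceride synthesis, stood at 0, 123, 57.4, 6.70 and 10.2 CPM in M2 and at 23.9, 118, 0.512, 7.37 and 0.490 CPM in M3. Both were highest in M2 replicate 2 and M3 replicate 2, and in M0 their means were 1400.0 and 960.3 CPM. SDR16C6, a dehydrogenase of the short-chain family, and FMO2, a flavin monooxygenase, were also highest in these 2 libraries, at 404 and 743 CPM and at 66.1 and 120.0 CPM.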
